A study of Mus musculus with 15 samples.

Results

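The livers of 5 wild-type (WT) mice given an alcohol diet (Alc) were compared with the livers of 5 WT mice given a control diet (Ctrl), across the whole transcriptome. The deposited table holds FPKM (fragments per kilobase of transcript, scaled to the mapped fragments of a library) for 18510 gene rows, and a gene was included when at least 5 of the 10 libraries reached 1 FPKM, which kept 10773 genes. Each library is total RNA from 1 liver, and the labels give neither strain, sex and age nor the length of the diet and the hour of collection. The third group of the series, 5 livers labelled Alc UA, was not part of the comparison. Nothing in the labels says whether the libraries of a group were prepared together, so the p-values below measure the spread between these 5 libraries a group.

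The liver clears ethanol mainly in hepatocytes, where alcohol dehydrogenase, cytochrome P450 2E1 and aldehyde dehydrogenase turn it through acetaldehyde into acetate, with NAD+ as the electron acceptor of the dehydrogenase steps. Hepatocytes also make most plasma proteins, bile acids and urea, store glycogen, and detoxify foreign compounds by oxidation, conjugation and export. They lie along a blood capillary, the sinusoid, whose wall is formed by a specialised endothelium with resident macrophages (Kupffer cells) and stellate cells beside it. Much of this programme follows the time of day, through a transcriptional clock that every hepatocyte carries.

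The libraries read as liver. Alb (albumin) stood at 26735 ± 7660.3 to 38558 ± 7582 FPKM from Ctrl to Alc (mean ± SD, n = 5 here and throughout), Ttr (transthyretin) at 7014 ± 1078 to 5570.3 ± 315 and Apoa1 at 10551 ± 3702 to 6481 ± 1126, and none of these 3 hepatocyte genes passed the test (limma, adjusted p = 0.16, 0.16 and 0.1), although Apoa1 and Ttr passed in 4 and 2 of 23 alternatives. The summed level of 6 hepatocyte markers ran from 27052 to 55565 in Ctrl and from 40224 to 62911 in Alc. Acinar pancreas markers summed to no more than 6.06 and 6.48 FPKM in the groups and adipocyte markers to no more than 0.145 and 0.173. Between 10184 and 11471 genes reached 1 FPKM in each library, the deposited FPKM summed to 551153 to 668832, and the factors that bring the libraries to a common scale ran from 0.894 to 1.19. Read depth was not given with the FPKM values, so no counting error could be attached to them.

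Of the 10773 genes, 1857 were higher in Alc and 1772 lower at an adjusted p under 0.05 (limma with Benjamini-Hochberg adjustment), 33.7% of all genes tested, or 17.2% higher and 16.4% lower. Past a log2 fold change of 1 stood 184 genes that rose (1.71%) and 153 that fell (1.42%). In 1137 genes (10.6%) all 5 Alc libraries lay above all 5 Ctrl libraries, and in 941 genes (8.73%) they lay below. The median log2 fold change over all genes was -0.01, with quartiles at -0.24 and 0.22, and every list below is to be read against these shares and this median. On the FPKM as deposited, without scaling between libraries, the split was 1024 higher and 2192 lower and the median -0.12. Where this setting moved the share of rises among the calls of a list by over 10 percentage points, its counts of rises and falls follow the word unscaled. Levels below are scaled FPKM. The log2 fold changes are differences of log2(scaled FPKM + 1), so that a gene near 1 FPKM shows a smaller log2 change than the ratio of its means.

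The leading principal component held 50.7% of the variance and separated the groups without overlap. Ctrl libraries lay between -34.1 and -5.71 on it and Alc libraries between 18 and 29.7. Ctrl 5 was the control library nearest to Alc at -5.71. The next component held 16% and ran across the groups, with Ctrl 1 at 26.9 and Alc 4 at 19, and with Ctrl 5 at -20.6. Pairs of Ctrl libraries correlated at 0.96 to 0.99 and pairs of Alc libraries at 0.975 to 0.992, while pairs across the diets reached 0.941 to 0.976 (log2 values across genes, which are not independent replicates).

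**Figure D1:**
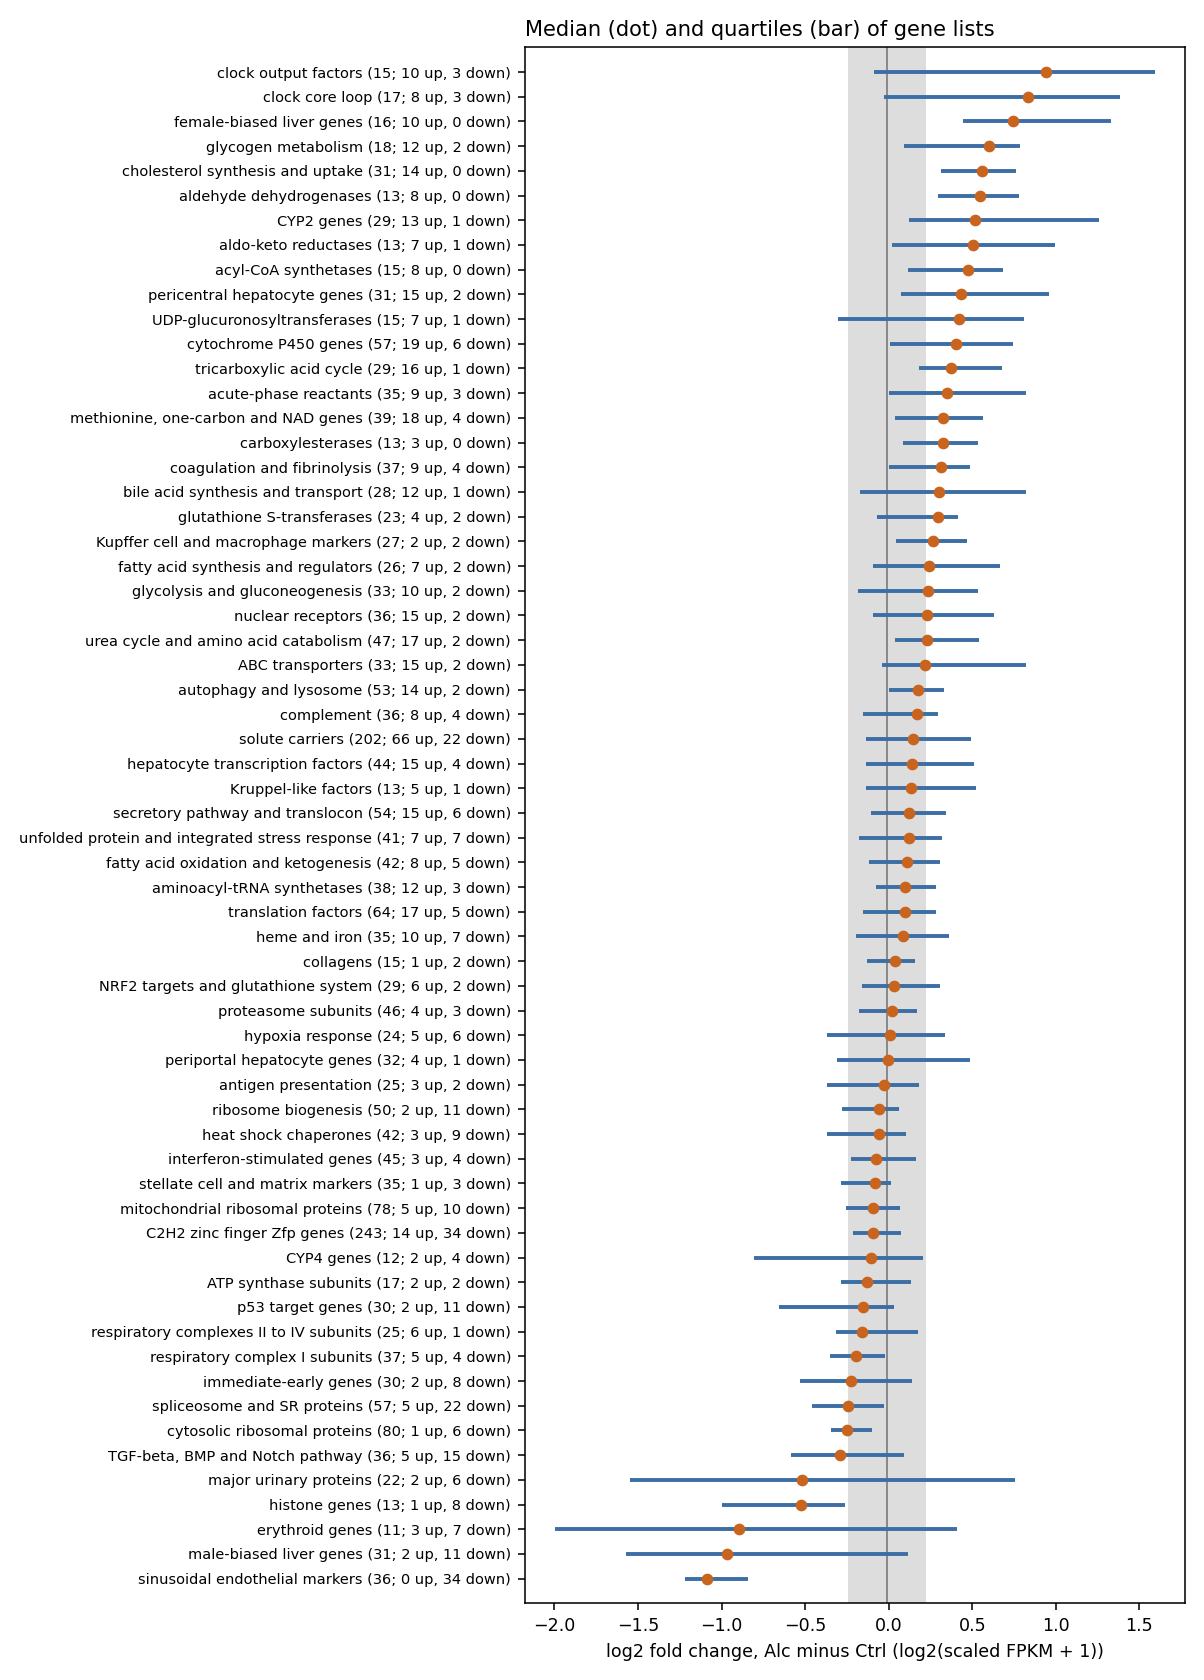
Median (dot) and quartiles (bar) of the log2 fold change in gene lists described in the text with 11 or more genes tested, beside the counts of genes that rose and fell. The grey band and line are the quartiles and median of all 10773 genes. Clock lists lie highest, with medians of 0.94 and 0.84, and sinusoidal endothelial markers lowest at -1.09.

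Genes of the circadian clock had the highest medians of the lists with 11 or more genes described here. The clock is a feedback loop in which BMAL1 (Arntl) and CLOCK drive the Per and Cry genes and the Rev-erb genes, whose products hold the pair back, and the PAR bZIP factors DBP, TEF and HLF carry the rhythm to metabolic genes. BMAL1 and CLOCK bind the E-box CACGTG, and the PAR bZIP factors bind the D-box, searched here as TTATGTAA or TTACGTAA. Promoters from RefSeq (GRCm38.p6, the 250 bases before the annotated start, written 5′ to 3′ along the gene) are shown for 4 genes of the loop and its output that carry these letters, with the matches in capitals. Ciart lies at chr3:95882229-95882478 on the minus strand, Tef at chr15:81802423-81802672 on the plus strand, Coq10b at chr1:55052520-55052769 on the plus strand and Per3 at chr4:151044666-151044915 on the minus strand.
Ciart: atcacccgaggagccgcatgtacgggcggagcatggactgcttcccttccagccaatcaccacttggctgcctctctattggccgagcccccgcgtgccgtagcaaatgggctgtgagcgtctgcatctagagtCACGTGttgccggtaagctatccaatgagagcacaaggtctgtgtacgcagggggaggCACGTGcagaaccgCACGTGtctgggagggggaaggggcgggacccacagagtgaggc
Tef: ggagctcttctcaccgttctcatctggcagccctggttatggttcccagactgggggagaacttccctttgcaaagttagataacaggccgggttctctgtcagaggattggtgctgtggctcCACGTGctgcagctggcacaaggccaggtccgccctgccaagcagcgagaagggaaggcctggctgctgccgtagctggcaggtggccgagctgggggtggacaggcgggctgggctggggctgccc
Coq10b: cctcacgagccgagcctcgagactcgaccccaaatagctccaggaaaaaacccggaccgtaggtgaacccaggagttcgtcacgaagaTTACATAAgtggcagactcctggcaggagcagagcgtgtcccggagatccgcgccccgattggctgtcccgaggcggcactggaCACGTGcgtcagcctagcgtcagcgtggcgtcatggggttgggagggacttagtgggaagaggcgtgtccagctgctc
Per3: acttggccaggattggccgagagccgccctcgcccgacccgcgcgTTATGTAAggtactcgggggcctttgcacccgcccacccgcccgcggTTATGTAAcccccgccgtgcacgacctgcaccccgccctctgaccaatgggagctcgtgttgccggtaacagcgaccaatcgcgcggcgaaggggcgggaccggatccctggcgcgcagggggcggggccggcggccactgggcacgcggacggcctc
Ciart held 3 E-boxes, Tef 1, and Per3 2 D-boxes, while Coq10b held 1 of each, the D-box read on the opposite strand. Of the 8621 tested genes with a promoter in that table, 10.5% held CACGTG in either strand from 250 bases before to 50 after the start, against 7.24% of all 27025 promoters. The share was 12.3% among genes higher in Alc and 8.98% among genes lower. The D-box letters stood in 0.708% of the tested promoters and in 1.06% of all 27025. They stood in 1.09% of the promoters of genes higher in Alc and 0.631% of those lower. Past a log2 fold change of 1 the D-box share was 7 of 147 promoters (4.76%) for rises and 1 of 111 (0.901%) for falls. The share with CACGTG past that change was 12.2% for rises and 10.8% for falls. A match is a description of these letters and neither a site nor a cause.

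Ciart, which encodes a repressor of the CLOCK and BMAL1 pair, stood at 0.741, 0.667, 0.515, 0.321 and 0.426 in Ctrl 1 to 5 and 19.7, 17.2, 17.1, 6.75 and 9.4 in Alc 1 to 5. Every Alc library lay far above the highest Ctrl library, and the means differed 26.3-fold (log2 fold change 3.20 ± 0.24, adjusted p = 2.4e-05). All Ctrl levels of Ciart were under 1 FPKM, so it passed the filter through Alc alone and its ratio rests on low values. Its separation and p-value are therefore no independent support for a rise of clock genes. Tef was at 13.3, 21.1, 18.5, 13.3 and 19.7 in Ctrl 1 to 5 and 66.1, 69, 84, 50.5 and 60.4 in Alc 1 to 5, again with no overlap, and rose 3.84-fold (log2 fold change 1.89 ± 0.16, adjusted p = 5.6e-05). Coq10b, a mitochondrial coenzyme Q binding protein known as a clock output, rose 2.08-fold from 12.6 ± 2.16 to 26.2 ± 3.64 (adjusted p = 0.00047).

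Per3, Per2 and Nr1d2 of the negative limb rose as well. Per3 went from 0.759 ± 0.253 to 10.1 ± 3.05 FPKM and Per2 from 1.97 ± 0.506 to 10.9 ± 0.69, the latter with all Alc libraries between 9.8 and 11.6 (adjusted p = 5.9e-06 and 2.5e-06). Nr1d2, which encodes the repressor REV-ERB beta, rose 3.04-fold to 23.7 ± 0.805 FPKM (adjusted p = 0.00013). Wee1, a cell cycle kinase under clock control, stood at 0.725, 1.09, 0.782, 0.522 and 1.01 in Ctrl 1 to 5 and 4.26, 4.87, 3.6, 5 and 5.2 in Alc 1 to 5, a 5.56-fold rise without overlap (adjusted p = 1.3e-05).

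Arntl, of the positive limb, fell. It was at 9.26, 8.39, 10.9, 8.73 and 8.82 in Ctrl 1 to 5 and 1.73, 1.28, 1.12, 1.09 and 1.16 in Alc 1 to 5. The Ctrl libraries lay close together and far above every Alc library, and the mean was 7.23-fold lower in Alc (log2 fold change -2.17 ± 0.10, adjusted p = 6.6e-07). Of the 17 core loop genes tested, 8 rose and 3 fell, against 17.2% and 16.4% of all genes. Among the 8, Ciart had passed the filter through Alc alone. The 3 that fell were Arntl, Clock (log2 fold change -0.49, adjusted p = 0.0057) and Cry1 (log2 fold change -0.70, adjusted p = 0.011), the last a repressor whose own peak trails the others in the mouse liver. Of 15 output factors 10 rose and 3 fell, the latter Nfil3, Tars and Leo1, with log2 fold changes of -1.34, -0.72 and -0.80. NFIL3 represses through the D-box that DBP, TEF and HLF occupy. These counts kept within 8 to 9 and 8 to 10 genes that rose when single libraries were left out.

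**Figure D2:**
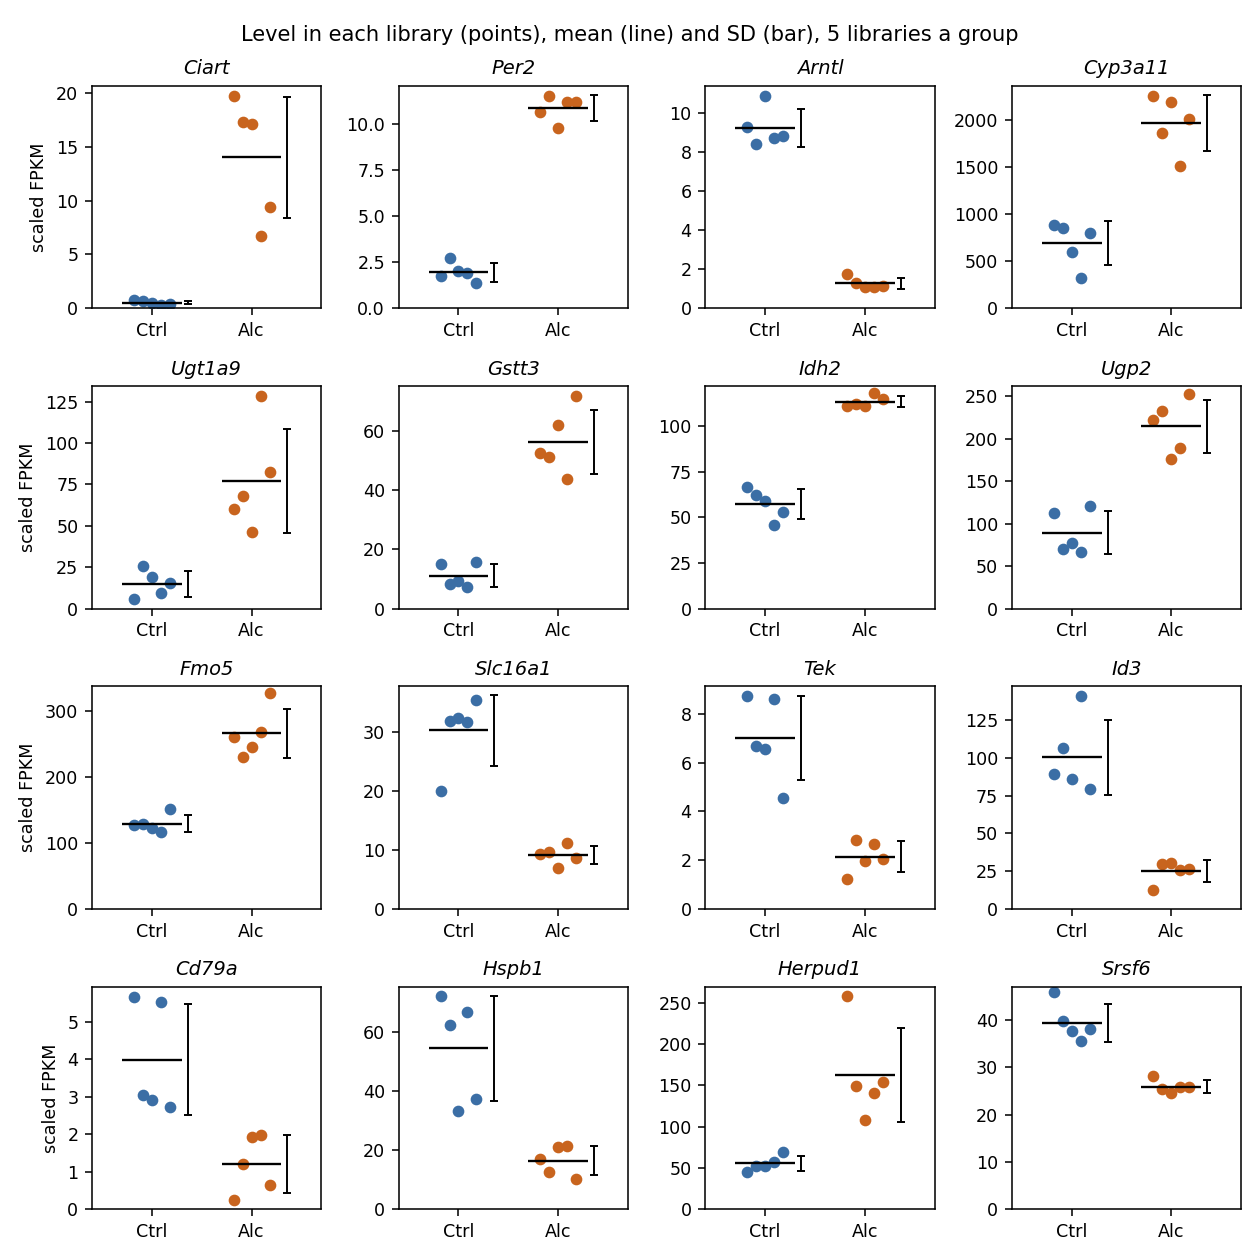
Scaled FPKM in each library for 16 genes of the text, with the group mean (line) and SD (bar) over 5 libraries; each axis starts at 0. In all 16 the Ctrl and Alc points do not overlap, as for Arntl at 8.39 to 10.9 against 1.09 to 1.73. The 16 were chosen with results of these data known. Over all genes tested, 10.6% were higher and 8.73% lower in Alc without overlap.

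Cytochrome P450 genes took a larger share of the summed FPKM in Alc. Shares within a library depend on one another, since its FPKM sum to the whole. P450 enzymes oxidise drugs, steroids, fatty acids and ethanol, and the CYP2 and CYP3A families are the main drug-metabolising ones. All 96 Cyp rows together made up 2.14%, 2.63%, 2.39%, 1.89% and 2.51% of the deposited FPKM in Ctrl 1 to 5, and 3.64%, 3.26%, 3.43%, 3.45% and 3.96% in Alc 1 to 5. The lowest Alc library lay above the highest Ctrl library. Of the 57 P450 genes tested, 19 rose and 6 fell (unscaled 17 and 9), with a median log2 fold change of 0.40. CYP2 genes gave 13 of those rises and 1 of the falls among 29 tested, the fall being Cyp2j9 (log2 fold change -1.41, adjusted p = 0.0092); without Alc 3, 2 CYP2 genes fell.

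Cyp3a11, the most abundant mouse CYP3A enzyme and a target of the xenobiotic receptor PXR, was at 879, 852, 602, 324 and 801 in Ctrl 1 to 5 and 2256, 1858, 2182, 1506 and 2011 in Alc 1 to 5. The groups were far apart, and the mean rose 2.84-fold (log2 fold change 1.58 ± 0.26, adjusted p = 0.0017). Cyp3a59 and Cyp3a13 rose 3.03- and 2.11-fold, so that 3 of the 4 CYP3A genes tested were called (adjusted p = 0.00044 and 0.0025). Cyp2c29 went from 87.6 ± 33.8 to 284 ± 67.8 and the much less abundant Cyp2c39 from 1.28 ± 1.02 to 5.97 ± 1.31 (adjusted p = 0.0011 and 0.00067). Reads of these near-identical family members can be shared out wrongly between genes, which the deposited values do not show.

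CYP4 genes, whose products oxidise fatty acids at their far end, did not follow: 2 of 12 rose and 4 fell (unscaled 1 and 4), and 1 rose without Alc 1, 2 or 5. Cyp4v3 rose 1.55-fold, to 162 ± 25.6 FPKM (adjusted p = 0.0068), the other riser being Cyp4a32 (log2 fold change 0.60, adjusted p = 0.027), which lost its call in 6 of 23 alternatives. Cyp4f17, at 13.3, 14.6, 15.2, 14.5 and 15.3 in Ctrl 1 to 5 and 9.18, 7.29, 8.27, 8.28 and 8.37 in Alc 1 to 5, was lower in every Alc library (log2 fold change -0.75 ± 0.07, adjusted p = 0.00014). Cyp4a12a fell from 156 ± 31.5 to 80.6 ± 23 (adjusted p = 0.006), and Cyp4a12b and Cyp4b1 fell with log2 fold changes of -1.17 and -1.15. Cyp1a2, a target of the dioxin receptor AhR and an abundant pericentral P450, stood at 94 ± 35 to 105 ± 25.4 (adjusted p = 0.53).

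UDP-glucuronosyltransferases attach glucuronic acid to bilirubin, steroids and drugs. Ugt1a9 was at 5.76, 25.8, 19, 9.41 and 15.4 in Ctrl 1 to 5 and 60, 68.1, 46, 128 and 82.6 in Alc 1 to 5, where every Alc library was above every Ctrl library. Its mean rose 5.11-fold (log2 fold change 2.35 ± 0.36, adjusted p = 0.0012), while Ugt1a1, the bilirubin-conjugating member, rose from 92.8 ± 37.8 to 259.6 ± 38.6 (adjusted p = 0.0017) and Ugt2b35 from 32.8 ± 5.14 to 48.6 ± 4.13 (adjusted p = 0.0045). In the family, 7 of 15 genes rose and 1 fell (unscaled 5 and 4), the fall being Ugt2b38 (log2 fold change -1.49, adjusted p = 0.034; call lost in 9 of 23 alternatives), and leaving out single libraries left 4 to 9 that rose, 4 without Alc 1, 2 or 5 or Ctrl 1, 3 or 4. Ugt1a9 and Ugt1a1 share their last exons, so the authors' counting could split reads between them.

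Gstt3, a theta-class glutathione S-transferase, stood at 15.2, 8.46, 9.23, 7.48 and 15.6 in Ctrl 1 to 5 and 52.5, 51.4, 62.1, 43.9 and 71.9 in Alc 1 to 5. It rose 5.03-fold without overlap (log2 fold change 2.27 ± 0.21, adjusted p = 8.5e-05). Gsta3, an alpha-class enzyme, rose from 508 ± 155 to 905 ± 181 (adjusted p = 0.012), but only 4 of 23 members of the family rose and 2 fell (unscaled 2 and 3), and the rises were near the background share of all genes; the falls were the pi-class near copies Gstp1 and Gstp2 (log2 fold change -1.25, adjusted p = 0.036 and log2 fold change -1.48, adjusted p = 0.032), with calls lost in 9 and 6 of 23 alternatives, and none fell without Alc 1, 2 or 5 or Ctrl 2 or 4. Of the sulfotransferases 4 of 7 rose (2 without Ctrl 4), led by Sult2a7 (0.78 ± 0.156 to 3.46 ± 1.13) and Sult1b1 (11.2 ± 4.68 to 24.7 ± 3.19), with adjusted p = 0.00065 and 0.0038. Genes of the NRF2 response, which guards against oxidants, gave 6 higher and 2 lower of 29 (unscaled 2 and 2), with a median of 0.03; when single libraries were left out only 2 to 5 rose, the fewest without Alc 5, Ctrl 2, Ctrl 3 or Ctrl 4.

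All 4 flavin monooxygenases tested rose, but 2 on the unscaled FPKM and 2 with the replicate number as a block. Among them was Fmo5, at 128, 129, 122, 117 and 152 in Ctrl 1 to 5 and 261, 230.4, 246, 268 and 327 in Alc 1 to 5, a 2.05-fold rise without overlap (log2 fold change 1.03 ± 0.12, adjusted p = 0.00029). Fmo2, a female-biased member of low level, rose from 6.84 ± 3.66 to 18.3 ± 6.55 with overlapping libraries (adjusted p = 0.006). Of 13 aldo-keto reductases 7 rose and 1 fell, with Akr1d1, the bile acid 5-beta-reductase, going from 44.5 ± 14.2 to 119.9 ± 28.5 and Akr1c19 from 17.2 ± 5.08 to 34.8 ± 7.7 (adjusted p = 0.0014 and 0.004). The single fall was Akr1b8, from 5.14 ± 2.63 to 1.89 ± 0.526 (adjusted p = 0.016); 3 fell without Ctrl 5. Of 13 carboxylesterases 3 rose and none fell (unscaled 3 and 1), among them Ces2e from 43.1 ± 20.1 to 93.9 ± 25.7 (adjusted p = 0.0076).

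Aldehyde dehydrogenases, which oxidise acetaldehyde and other aldehydes, gave 8 higher and none lower of 13, with a median log2 fold change of 0.55. Aldh1b1, a mitochondrial isozyme that can use acetaldehyde, stood at 18.6, 2.85, 18.1, 8.35 and 21.5 in Ctrl 1 to 5 and 39.2, 38.7, 34.1, 45.1 and 50.1 in Alc 1 to 5. All Alc libraries lay above all Ctrl libraries, of which Ctrl 2 was low, and the mean was 2.99-fold higher (log2 fold change 1.75 ± 0.41, adjusted p = 0.0086). Aldh6a1, which acts in valine breakdown, rose from 94 ± 17.5 to 152 ± 14.8 (adjusted p = 0.0026).

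ABC transporters and organic anion carriers move drugs and their conjugates across the hepatocyte membrane. Abcc2, the canalicular pump for glucuronides and bilirubin, was at 27.1, 36.5, 32.3, 19.7 and 41.3 in Ctrl 1 to 5 and 107, 64.9, 56.3, 70.3 and 79.2 in Alc 1 to 5. Its groups did not overlap and the mean rose 2.41-fold (log2 fold change 1.25 ± 0.21, adjusted p = 0.0017). Abcc3, its counterpart facing the blood, rose from 37.3 ± 12.2 to 81.9 ± 16.6 (adjusted p = 0.0035), and Slco1a4, an organic anion uptake carrier, from 17.9 ± 7.05 to 55.1 ± 15.9 (adjusted p = 0.0014). Of 33 ABC transporters tested 15 rose (unscaled 13 and 5), 13 to 17 when single libraries were left out, and 2 fell, Abca7 (log2 fold change -0.51, adjusted p = 0.005) and Abcc5 (log2 fold change -0.50, adjusted p = 0.039); 1 fell without Alc 1, 2, 3 or 4 or without Ctrl 3 or 4.

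Genes of lipid export were among them. Abcg5, which pumps sterols into bile, was at 28.2, 28.2, 26.7, 27.1 and 31.4 in Ctrl 1 to 5 and 45.8, 55.8, 46.2, 45.7 and 66.7 in Alc 1 to 5, with no overlap (log2 fold change 0.84 ± 0.11, adjusted p = 0.00056). Abca1, the cholesterol exporter to nascent HDL, rose from 8.65 ± 1.4 to 15.2 ± 1.18 and Abca3, a lipid pump of lamellar bodies, from 5.78 ± 1.14 to 10.5 ± 0.947 (adjusted p = 0.00058 and 0.001). In a list of sterol synthesis and uptake genes 14 of 31 rose and none fell, at a median of 0.56. The exporters Abcg5 and Abca1 are in this list too and are counted among its rises. Mvk, the mevalonate kinase, rose from 2.52 ± 0.404 to 5.25 ± 0.754 (adjusted p = 0.00044). When single libraries were left out, 14 to 20 genes of the list rose, and 1 fell without Alc 4, Ctrl 1 or Ctrl 4.

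Of 28 bile acid genes tested, 12 rose and 1 fell (unscaled 11 and 5), namely Fgfr4 (log2 fold change -0.32, adjusted p = 0.033), a receptor of the gut signal that holds synthesis back, which lost its call in 10 of 23 alternatives. Akr1d1 above was among those that rose. Cyp7a1, the rate-limiting enzyme of synthesis, was at 41.7, 39.1, 25.4, 12.3 and 40.8 in Ctrl 1 to 5 and 55, 31.1, 115, 35.9 and 29.8 in Alc 1 to 5, with Alc 3 far above the other libraries, and did not pass (adjusted p = 0.23).

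The tricarboxylic acid cycle turns acetyl groups into CO2 and reduced cofactors, and pyruvate dehydrogenase feeds it from glycolysis. Of 29 genes of the cycle and of pyruvate dehydrogenase, 16 rose and 1 fell, with a median of 0.37, and 13 to 19 rose when single libraries were left out. Idh2, the mitochondrial NADP-dependent isocitrate dehydrogenase, was at 66.9, 62.2, 58.9, 45.7 and 53.1 in Ctrl 1 to 5 and 111, 112, 111, 118 and 115 in Alc 1 to 5. The Alc libraries were tightly grouped above every Ctrl library, and the mean rose 1.98-fold (log2 fold change 0.98 ± 0.10, adjusted p = 0.00017). Pdha1, the catalytic subunit of pyruvate dehydrogenase, rose from 41.9 ± 6.58 to 75.5 ± 10.5, and Pdk1, a kinase that switches the complex off, from 11.3 ± 1.8 to 25.2 ± 4.24 (adjusted p = 0.0011 and 0.00035). Sdha rose from 97.6 ± 35.4 to 174 ± 33.7, with Ctrl 5 at 158 inside the Alc range (adjusted p = 0.01). The fall was in Idh3a (log2 fold change -0.41, adjusted p = 0.012), a subunit of the NAD-dependent isocitrate dehydrogenase.

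Glycogen genes gave 12 higher and 2 lower of 18, at a median of 0.60. Of these 18, 1 had passed the filter through Alc alone. With a mean of at least 2 FPKM over the 10 libraries, 10 of 15 rose and 2 fell. Ugp2, which makes UDP-glucose for glycogen and for glucuronides, stood at 112, 70.7, 77.5, 66.5 and 121 in Ctrl 1 to 5 and 222, 233, 176, 189 and 253 in Alc 1 to 5. There was no overlap and a 2.4-fold rise (log2 fold change 1.28 ± 0.18, adjusted p = 0.00074). Gys2, the liver glycogen synthase, rose from 74.5 ± 16.2 to 123 ± 16.2, and Stbd1, a glycogen-binding adaptor for the lysosome, from 27.2 ± 6.78 to 55.1 ± 7.17 (adjusted p = 0.0064 and 0.0013). The falls were Ppp1r3c, a glycogen-targeting phosphatase subunit (log2 fold change -1.79, adjusted p = 0.00064), and Phkg2 (log2 fold change -0.40, adjusted p = 0.041), which lost its call in 11 of 23 alternatives.

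Of 33 genes of glycolysis and gluconeogenesis 10 rose and 2 fell (unscaled 7 and 4). Pklr, liver pyruvate kinase, was at 21.2, 19.7, 18.5, 15.4 and 30.9 in Ctrl 1 to 5 and 38, 57.3, 36.4, 75.5 and 71.1 in Alc 1 to 5, with every Alc library above the highest Ctrl library (log2 fold change 1.33 ± 0.23, adjusted p = 0.0021). Pfkl rose from 7.21 ± 1.14 to 10.8 ± 1 and Gpi1 from 50.5 ± 3.68 to 71.8 ± 8.59 (adjusted p = 0.0037 and 0.0045). The 2 that fell, Hk1 (log2 fold change -0.53, adjusted p = 0.037) and Pfkp (log2 fold change -0.66, adjusted p = 0.022), are isozymes that hepatocytes express little, and their calls were lost in 10 and 3 of 23 alternatives.

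Of 26 genes of fatty acid synthesis and its regulators 7 rose and 2 fell (12 rose without Ctrl 5). Acly, which makes cytosolic acetyl-CoA from citrate, rose from 15 ± 1.92 to 24.2 ± 3.38 (adjusted p = 0.0021). Of 42 oxidation and ketogenesis genes 8 rose and 5 fell (unscaled 6 and 6), a share near the background, and the 5 ranged from 0 without Alc 5 to 6. Acad10, an acyl-CoA dehydrogenase of the mitochondrion, was at 7.35, 8.06, 8.65, 7.55 and 12.1 in Ctrl 1 to 5 and 18.1, 21.8, 16.3, 19.3 and 28.5 in Alc 1 to 5. That is a 2.38-fold difference without overlap (log2 fold change 1.16 ± 0.16, adjusted p = 0.00059). Echs1, the short-chain enoyl-CoA hydratase, rose from 122 ± 24 to 197 ± 17.4 (adjusted p = 0.003). Acyl-CoA synthetases rose in 8 of 15 and fell in none, at a median of 0.47.

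Nuclear receptors, the ligand-gated factors that set much of this metabolism, gave 15 higher and 2 lower of 36, and 13 to 16 rose when single libraries were left out. Ppara, the fatty acid sensor that drives oxidation, was at 25.6, 45, 41.6, 33.3 and 46.5 in Ctrl 1 to 5 and 84.1, 71.3, 52.7, 70.3 and 80.1 in Alc 1 to 5. Its groups did not overlap (log2 fold change 0.90 ± 0.17, adjusted p = 0.0037). Thrb, the liver's main thyroid hormone receptor, rose from 3.22 ± 0.527 to 5.45 ± 0.373, and Nr3c2, the mineralocorticoid receptor, from 1.55 ± 0.205 to 3.41 ± 0.265 (adjusted p = 0.00094 and 0.00016). The 2 that fell were Nr2f6, from 36.4 ± 3.07 to 26 ± 1.86 (adjusted p = 0.0024), and Nr2f2 (log2 fold change -0.49, adjusted p = 0.017). The xenobiotic receptors PXR (Nr1i2) and CAR (Nr1i3) both rose (log2 fold change 0.52, adjusted p = 0.0068, and log2 fold change 0.68, adjusted p = 0.015). On the FPKM as deposited the Nr1i3 call was lost.

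Among the wider set of 44 hepatocyte transcription factors 15 rose and 4 fell (unscaled 8 and 6). Onecut1, a factor of liver development, was at 0.59, 2.77, 4.53, 1.55 and 2.66 in Ctrl 1 to 5 and 4.69, 6.23, 9.65, 10.4 and 11.5 in Alc 1 to 5. All Alc libraries were above all Ctrl libraries, with Ctrl 1 the lowest, and the mean rose 3.5-fold (log2 fold change 1.53 ± 0.31, adjusted p = 0.0048). Foxo3, a forkhead factor that insulin signalling keeps out of the nucleus, rose 2.02-fold from 5.03 ± 0.72 to 10.2 ± 2.17 (adjusted p = 0.00097). The 4 that fell were Nr2f6, Nr2f2, Tbx3 (log2 fold change -0.76, adjusted p = 0.0052) and Atf5 (log2 fold change -1.01, adjusted p = 0.0075). Of the Kruppel-like factors 5 of 13 rose and 1 fell (unscaled 3 and 2). Klf13 went from 4.92 ± 0.727 to 11.5 ± 2.05 and Klf1 from 1.14 ± 0.0874 to 3.68 ± 0.99 without overlap (adjusted p = 0.00032 and 0.00032), and Klf12 rose as well (log2 fold change 0.57, adjusted p = 0.0084), while the calls of Klf3, Klf15 and Klf2 (log2 fold change 0.40, 0.52 and -0.71) were lost in 9, 8 and 13 of 23 alternatives.

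Amino acid breakdown rose in 17 of 47 genes and fell in 2 (unscaled 11 and 4), and 11 rose without Alc 5. Gpt, alanine aminotransferase, was at 113, 114, 113, 140.3 and 125 in Ctrl 1 to 5 and 197, 189.8, 254, 168 and 234 in Alc 1 to 5, with no overlap and a 1.73-fold step (log2 fold change 0.77 ± 0.13, adjusted p = 0.0015). Mccc1, of leucine breakdown, rose from 10.6 ± 2.64 to 20.4 ± 2.35 (adjusted p = 0.0012). Both falls, Gldc (log2 fold change -0.58, adjusted p = 0.037) and Ddc (log2 fold change -0.42, adjusted p = 0.022), lost their call in 9 and 4 of 23 alternatives.

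In the methionine, folate and NAD set 18 of 39 rose and 4 fell. Gnmt, which consumes surplus S-adenosylmethionine, rose from 679.9 ± 285 to 1246 ± 250.3 with Ctrl 5 inside the Alc range (adjusted p = 0.018). Of the NAD genes, Nampt, the rate-limiting salvage enzyme and a clock output, rose from 12.3 ± 1.75 to 24.7 ± 5 and the mitochondrial Nmnat3 from 3.08 ± 0.138 to 5.27 ± 0.613 (adjusted p = 0.0009 and 0.00047). Among the falls were Csad (log2 fold change -1.32, adjusted p = 0.029), Gclc (log2 fold change -0.70, adjusted p = 0.014) and Naprt (log2 fold change -0.49, adjusted p = 0.027), with calls lost in 6, 1 and 7 of 23 alternatives, and 2 genes fell without Alc 2, Alc 5, Ctrl 2 or Ctrl 4.

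Of the heme synthesis enzymes Alas1, Urod, Cpox and Fech rose, while Alad, Uros and Ppox did not pass. Alas1, the rate-limiting enzyme of the pathway in the liver, was at 112, 232, 195, 228 and 195 in Ctrl 1 to 5 and 451, 398, 425, 331 and 404 in Alc 1 to 5, a 2.09-fold rise without overlap (log2 fold change 1.10 ± 0.19, adjusted p = 0.002). Fech, which puts iron into the ring, rose from 34.2 ± 6.63 to 55.1 ± 5.9 (adjusted p = 0.0034). The P450 proteins are the main users of heme in hepatocytes. The 7 members that fell were Hamp, Bmp2, Bmp6, Id1, Smad6, Smad7 and Atoh8, of the BMP signal and hepcidin, while Tmprss6, which restrains that signal, rose. Of the less firm calls, those of Urod, Cpox, Bmp6, Id1, Smad6 and Tmprss6 were lost in 11, 11, 10, 12, 8 and 12 of 23 alternatives. Bmp2, the endothelial signal that induces the iron hormone hepcidin, fell from 11.8 ± 3.36 to 4.46 ± 1.29, and Atoh8, a factor of the same route in hepatocytes, from 13.8 ± 3.49 to 5.24 ± 1.11 (adjusted p = 0.0019 and 0.00089). Hepcidin itself (Hamp) was at 2668, 4479, 1770.3, 3256 and 631 in Ctrl 1 to 5 and 717, 585, 1590.2, 441 and 457 in Alc 1 to 5 and overlapped (log2 fold change -1.67, adjusted p = 0.026); its call was lost in 7 of 23 alternatives. In the list as a whole 10 of 35 rose and 7 fell (unscaled 5 and 7), and with single libraries left out 5 to 11 rose and 3 to 7 fell, the fewest rises without Alc 1.

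Secreted protein genes went both ways. The called shares of acute-phase (34.3%) and complement (33.3%) genes were near the 33.7% of all genes. Apolipoprotein rows (11) made up 10.8% ± 1.19 of the deposited FPKM in Ctrl and 8.64% ± 0.484 in Alc. Gene by gene few passed the test. Of 27 apolipoprotein and lipoprotein assembly genes tested 1 rose and 3 fell (unscaled 1 and 6), at a median of -0.10. That is 14.8% called against 33.7% of all genes, and the median was -0.05 with the length trend removed. The 22 major urinary protein (Mup) rows, pheromone carriers secreted by the male mouse liver, made up 9.36% to 14.2% in Ctrl and 11.8%, 12.1%, 12.6%, 3.42% and 8.52% in Alc 1 to 5, with Alc 4 the lowest. Mup genes are near copies of each other, and values of single Mup genes are uncertain. Of 35 acute-phase genes 9 rose and 3 fell (14 rose without Ctrl 1). Il6ra, the interleukin 6 receptor subunit, was at 2.76, 4.01, 6.39, 2.03 and 4.77 in Ctrl 1 to 5 and 14.9, 11.8, 9.57, 8.01 and 18.8 in Alc 1 to 5, with no overlap (log2 fold change 1.46 ± 0.26, adjusted p = 0.0023), and Serpina3n rose from 126 ± 44 to 299 ± 75.6 (adjusted p = 0.0029).

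Complement genes gave 8 higher and 4 lower of 36 (unscaled 4 and 5), 5 higher without Alc 5, Ctrl 1, Ctrl 2 or Ctrl 4. C3, the hub of the cascade, was at 914, 1294, 1299, 1192 and 1393 in Ctrl 1 to 5 and 2028, 1742, 1896, 1640.2 and 1748 in Alc 1 to 5, a 1.49-fold rise without overlap (log2 fold change 0.58 ± 0.15, adjusted p = 0.012), and C2 rose from 32.2 ± 6.55 to 53.9 ± 5.12 (adjusted p = 0.002). Cd55, which protects host cells by taking the C3 convertase apart, fell from 11.8 ± 3 to 4.4 ± 1.06 (adjusted p = 0.00094). The other falls were C6, C8g and Mbl1, with log2 fold changes of -1.44, -0.53 and -0.46; the Mbl1 call was lost in 6 of 23 alternatives.

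Of the coagulation genes tested 35.1% were called, near the 33.7% of all genes, and the calls went both ways. Among those that rose were Serpind1 (heparin cofactor II) from 117 ± 40.9 to 221 ± 23.5 and Hrg (histidine-rich glycoprotein) from 485 ± 89.1 to 936 ± 186 (adjusted p = 0.0045 and 0.0035). The 4 that fell are genes known from endothelium: Vwf (2.36 ± 0.533 in Ctrl, 0.863 ± 0.401 in Alc) and Tfpi (6.38 ± 1.81 and 2.66 ± 0.784), with adjusted p = 0.0029 and 0.0035, and F8 and Thbd (log2 fold change -0.82, adjusted p = 0.0065 and log2 fold change -0.67, adjusted p = 0.014). In all 9 of 37 rose, and 18 did without Ctrl 5.

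Many liver genes differ between male and female mice. Of 31 male-biased genes 11 fell and 2 rose, at a median of -0.97, and of 16 female-biased genes 10 rose and none fell, at a median of 0.74. Among the male-biased genes 1 had passed the filter through Ctrl alone, and Mup21 is a Mup gene, of uncertain single value. With a mean of at least 2 FPKM, 10 of 30 male-biased genes fell and 2 rose, at a median of -0.695. At that level 8 of 14 female-biased genes rose and 0 fell, at a median of 0.621. In the male-biased list 6 to 12 fell when single libraries were left out, 6 without Ctrl 4. The 2 that rose were Keg1 (log2 fold change 1.08, adjusted p = 0.03), lost in 7 of 23 alternatives, and Hsd3b2 (log2 fold change 1.01, adjusted p = 0.0072). Hsd3b3, a steroid dehydrogenase near it in sequence, was at 62.7, 32.4, 30, 28.8 and 81.7 in Ctrl 1 to 5 and 108, 157, 135, 159 and 198 in Alc 1 to 5, a 3.21-fold rise without overlap (log2 fold change 1.77 ± 0.29, adjusted p = 0.0015).

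Markers of the sinusoidal endothelium were lower in Alc almost without exception. This endothelium has open pores, takes up waste by scavenger receptors, and sends Wnt and BMP signals to the hepatocytes beside it. Of 36 markers tested 34 fell and none rose, against 16.4% of all genes that fell, with a median log2 fold change of -1.09. Leaving out single libraries left 31 to 35 that fell. In bulk tissue, fewer cells of a type and less RNA per cell cannot be told apart. The summed level of 11 defining markers was 283, 221, 202, 294 and 129 FPKM in Ctrl 1 to 5 and 60.3, 126, 69.2, 102 and 93.9 in Alc 1 to 5. Ctrl 5 lay just above Alc 2, and all other controls stood far above the Alc libraries.

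Tek, the receptor TIE2, was at 8.74, 6.69, 6.56, 8.59 and 4.55 in Ctrl 1 to 5 and 1.22, 2.85, 1.97, 2.64 and 2.04 in Alc 1 to 5, and the highest Alc library lay well under the lowest Ctrl library (log2 fold change -1.35 ± 0.18, adjusted p = 0.00053). Tspan7, a membrane organiser, fell from 25.6 ± 7.34 to 8.84 ± 2.47 (adjusted p = 0.0013). Stab2, the hyaluronan scavenger receptor, was at 23.3, 20.1, 17.2, 24.9 and 11.9 in Ctrl 1 to 5 and 8.69, 12.7, 7.51, 10.2 and 10.9 in Alc 1 to 5, with Ctrl 5 inside the Alc range (log2 fold change -0.87 ± 0.19, adjusted p = 0.0057). Lyve1, another hyaluronan receptor, was among the markers that did not pass, at 8.69 ± 3.59 to 7.1 ± 2.73 FPKM (adjusted p = 0.53). The endothelial tight junction gene Cldn5 fell from 8.54 ± 3.57 to 2.57 ± 0.928 and the water channel Aqp1 from 62 ± 18.1 to 24.4 ± 8.19 (adjusted p = 0.0022 and 0.0032).

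Wnt2 and Rspo3, signals that this endothelium sends to hepatocytes, are 2 of the 34 markers that fell. Wnt2 was at 4.53, 3.71, 3.25, 4.46 and 1.85 in Ctrl 1 to 5 and 0.559, 1.29, 0.977, 1.09 and 0.756 in Alc 1 to 5. No Alc library reached the lowest control, Ctrl 5, and the mean was 3.81-fold lower (log2 fold change -1.21 ± 0.18, adjusted p = 0.00091). Rspo3, which amplifies Wnt signals around the central vein, fell from 5.39 ± 1.15 to 2.45 ± 0.304 (adjusted p = 0.00076). Of the Wnt target genes that mark pericentral hepatocytes, Axin2 (log2 fold change -0.52, adjusted p = 0.0072) and Tbx3 were lower. Yet of 31 pericentral genes 15 rose and only these 2 fell (9 rose without Ctrl 4), and Fzd4, a Wnt receptor, rose from 2.91 ± 0.317 to 7.3 ± 1.67 (adjusted p = 0.00035). Of 32 periportal genes 4 rose and 1 fell (unscaled 4 and 4), the fall being Ctsc (log2 fold change -0.33, adjusted p = 0.043, call lost in 11 of 23 alternatives), at a median of -0.01, and 7 rose without Alc 4.

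Id3, which encodes an inhibitor of bHLH factors and is induced by BMP, was at 89.1, 106, 85.9, 141 and 79.3 in Ctrl 1 to 5 and 12.4, 29.7, 30.8, 25.7 and 26.3 in Alc 1 to 5. Every Alc library was far below the lowest Ctrl library (log2 fold change -1.99 ± 0.23, adjusted p = 0.00033). Id2 fell from 146 ± 32.4 to 58.2 ± 10.1 and Hes1, the Notch target, from 13.8 ± 4.65 to 5.01 ± 1.32 (adjusted p = 0.00046 and 0.0015). Smad7, the feedback inhibitor of the pathway, fell too (log2 fold change -0.65, adjusted p = 0.019). Of 36 genes of the TGF-beta, BMP and Notch set, which holds ligands, receptors and targets, 15 fell and 5 rose (unscaled 2 and 15), with a median of -0.29. With single libraries left out 7 to 18 fell, 7 without Alc 1 and 8 or 9 without Ctrl 1, 2, 3 or 4. Several of the falling members are endothelial genes themselves, among them Bmp2 and Eng (log2 fold change -0.94, adjusted p = 0.0078), and the part of the endothelial markers in this result was not tested.

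Of 13 cholangiocyte and progenitor markers Krt8 (log2 fold change 0.66, adjusted p = 0.0091) and Onecut1 rose and Sox9 (log2 fold change -0.79, adjusted p = 0.01), a bile duct factor, fell.

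**Figure D3:**
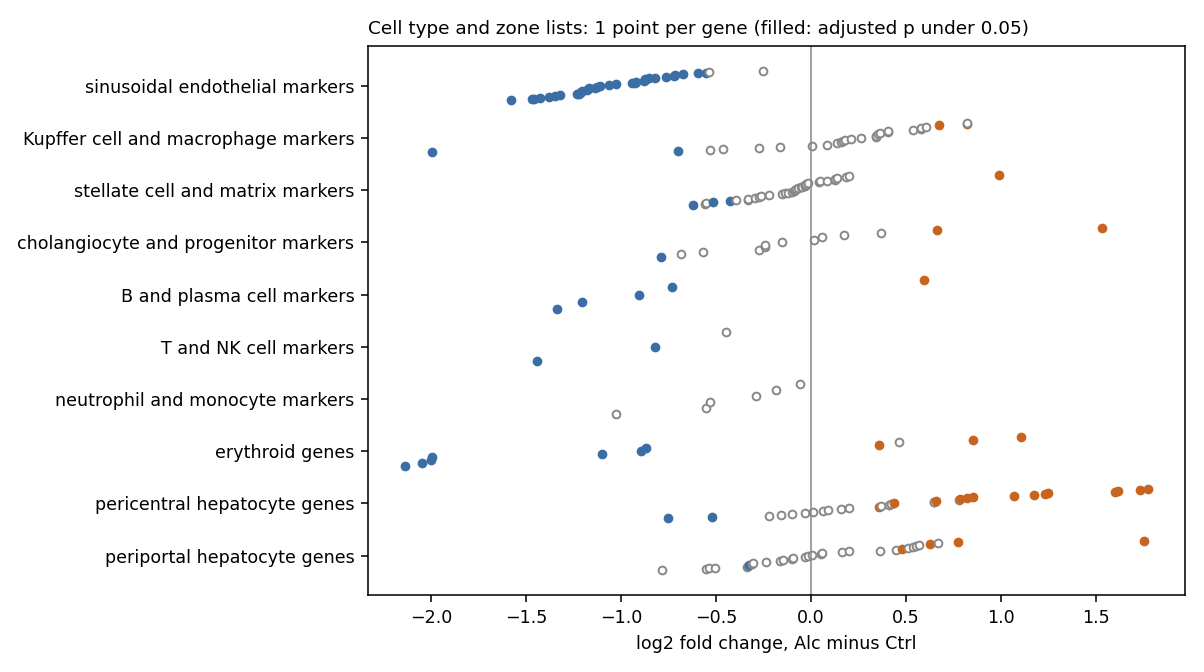
Log2 fold change of each gene in 10 cell type and zone lists (1 point a gene; filled where adjusted p was under 0.05, orange for higher and blue for lower in Alc, open otherwise). The sinusoidal endothelial points all lie below 0, 34 of 36 of them filled, while 2 of 27 Kupffer cell and macrophage points are filled above 0 and 2 below, their median being 0.26.

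Of 27 Kupffer cell and macrophage genes 2 rose and 2 fell (unscaled 1 and 2), at a median of 0.26. The sum of 9 defining markers was 226, 124, 97.1, 156 and 47.3 FPKM in Ctrl 1 to 5 and 124 to 231 in Alc, which overlap. Clec4f, the most specific Kupffer cell marker in the mouse, was at 37, 24.6, 23.9, 36.1 and 11.7 in Ctrl 1 to 5 and 28.7, 40.7, 25.6, 33.5 and 34.7 in Alc 1 to 5 (adjusted p = 0.3). The rises were Hpgd, a prostaglandin-degrading enzyme that hepatocytes also express (log2 fold change 0.82, adjusted p = 0.012), and Cd163 (log2 fold change 0.67, adjusted p = 0.039), the falls Id3 and Cd9 (log2 fold change -0.70, adjusted p = 0.021). The Cd163 and Cd9 calls were lost in 10 and 1 of 23 alternatives, and without Ctrl 1 6 genes of the list rose.

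Of 35 stellate cell and matrix genes tested 1 rose and 3 fell, and 6 fell without Ctrl 5. Col1a1, the main fibrillar collagen, was at 1.77 ± 0.946 to 1.98 ± 0.756 FPKM (adjusted p = 0.69). The rise was Mmp19, a matrix protease, which rose from 9.76 ± 1.83 to 20.2 ± 2.15 (adjusted p = 0.00038), and the falls were Eln (elastin, log2 fold change -0.62, adjusted p = 0.005), Mmp14 (log2 fold change -0.43, adjusted p = 0.013) and Rgs5 (log2 fold change -0.52, adjusted p = 0.028), the last lost in 9 of 23 alternatives. Among 15 collagens 1 rose and 2 fell. Col13a1 and Col5a3 were lower, from 5.65 ± 1.6 to 1.46 ± 0.447 and 16.1 ± 3.9 to 5.8 ± 1.14 FPKM (adjusted p = 0.00044 and 0.00042), and Col18a1, which hepatocytes make, was higher (log2 fold change 0.57, adjusted p = 0.02) and lost its call in 2 of 23 alternatives.

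Genes of red cells and B cells were mostly lower. Globin rows made up 0.549%, 0.224%, 0.567%, 1.31% and 0.389% of the FPKM in Ctrl 1 to 5 and 0.099% to 0.173% in Alc. Of 11 erythroid genes 7 fell, and Klf1, Car1 and Tfrc rose (log2 fold change 1.10, 0.85 and 0.36), the Tfrc call being lost in 16 of 23 alternatives. Of the 5 B and plasma cell genes tested 4 fell, among them Cd79a and Jchain. Of these 5, 1 had passed the filter through Ctrl alone, so its fall is no independent support. With a mean of at least 2 FPKM over the 10 libraries 3 genes remained, of which 2 fell and 1 rose. Cd79a, of the B cell receptor, was at 5.67, 3.06, 2.92, 5.55 and 2.74 in Ctrl 1 to 5 and 0.246, 1.21, 1.93, 1.98 and 0.648 in Alc 1 to 5 (log2 fold change -1.21 ± 0.26, adjusted p = 0.0061), and Jchain, of secreted IgA and IgM, fell from 5.4 ± 2.04 to 1.44 ± 0.509 (adjusted p = 0.0028), as did Cd79b (log2 fold change -0.73, adjusted p = 0.01). The exception was Xbp1 (log2 fold change 0.59, adjusted p = 0.013), which hepatocytes express as well. The sum of B cell markers was 7.7 to 18.9 FPKM in Ctrl and 1.87 to 6.4 in Alc, that of T and NK markers 2.21 to 13.9 and 2.02 to 3.58, and that of neutrophil markers 5.73 to 34.9 and 5.29 to 9.16. Of the T and NK markers 3 could be tested, and Gzma and Ccl5 fell (log2 fold change -0.82, adjusted p = 0.019 and log2 fold change -1.44, adjusted p = 0.022); 1 fell without Alc 1 or Ctrl 4. None of 6 neutrophil and monocyte genes passed, and 3 fell without Ctrl 5.

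Stress genes did not move as a block. Among heat shock chaperones 9 of 42 fell and 3 rose (unscaled 1 and 14), with a median of -0.06, and 5 fell without Alc 5 or Ctrl 2. Hspb1 was at 72.1, 62.6, 33.4, 67 and 37.5 in Ctrl 1 to 5 and 17, 12.7, 21.1, 21.5 and 10.2 in Alc 1 to 5, without overlap and 3.3-fold lower in Alc (log2 fold change -1.65 ± 0.26, adjusted p = 0.0012). Hsp90aa1, the inducible HSP90, fell from 94.8 ± 23.8 to 45 ± 10.2 (adjusted p = 0.0026). The rises were Fkbp5 (log2 fold change 0.69, adjusted p = 0.042), a glucocorticoid target, and the mitochondrial chaperones Hspa9 and Hspd1 (log2 fold change 0.67, adjusted p = 0.025 and log2 fold change 0.49, adjusted p = 0.045), whose calls were lost in 11, 3 and 10 of 23 alternatives.

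In the unfolded protein and integrated stress response set 7 of 41 rose and 7 fell (14 rose without Ctrl 5). Herpud1, of ER-associated degradation, was at 45.2, 52.4, 52.3, 57.5 and 69.5 in Ctrl 1 to 5 and 258, 149.7, 107, 140.4 and 154 in Alc 1 to 5, a 2.92-fold rise without overlap (log2 fold change 1.48 ± 0.20, adjusted p = 0.00059). Hspa5, the chaperone BiP that marks an active response, was at 105, 98.9, 106, 173 and 335 in Ctrl 1 to 5 and 164, 169, 122, 152 and 132 in Alc 1 to 5, with Ctrl 5 highest of all (adjusted p = 0.97). Atf4, the factor at the head of the integrated arm, fell from 68.1 ± 13.6 to 42.6 ± 7.85 and its target Trib3 rose from 3.42 ± 0.621 to 7.88 ± 1.71 (adjusted p = 0.0088 and 0.00078).

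Targets of p53 fell in 11 of 30 and rose in 2, and 9 to 12 fell when single libraries were left out. Btg1, an antiproliferative gene, went from 26.5 ± 3.17 to 14.6 ± 2.58 and Ccng2, an atypical cyclin, from 12.9 ± 1.21 to 7.85 ± 1.74 (adjusted p = 0.0011 and 0.0034). The rises were Dcxr (log2 fold change 0.62, adjusted p = 0.0057) and Ccng1 (log2 fold change 0.42, adjusted p = 0.0056), the latter lost on the FPKM as deposited. E2f8, a repressor of cell cycle genes in polyploid hepatocytes, stood at 3.04, 6.17, 5.54, 5.54 and 6.69 in Ctrl 1 to 5 and 2.13, 2.1, 1.73, 2.65 and 1.58 in Alc 1 to 5, 2.65-fold lower without overlap (log2 fold change -1.05 ± 0.16, adjusted p = 0.0013).

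Immediate-early genes, which respond to stimuli within minutes, gave 2 higher and 8 lower of 30, with 3 to 7 lower when single libraries were left out, 3 without Ctrl 4. Fos scattered widely, at 6.03, 14, 2.81, 15.9 and 33.7 in Ctrl 1 to 5 and 4.8, 2.12, 20.8, 52.9 and 10.2 in Alc 1 to 5 (adjusted p = 1). Maff, a small MAF factor, was at 1.26, 1.57, 1.55, 1.48 and 0.973 in Ctrl 1 to 5 and 8.21, 5.32, 3.32, 9.68 and 6.87 in Alc 1 to 5, 4.89-fold higher without overlap (log2 fold change 1.64 ± 0.21, adjusted p = 0.00044), the other rise being Dusp6 (log2 fold change 1.07, adjusted p = 0.0068). Ier5 fell from 4.81 ± 1.4 to 1.6 ± 0.413, Gem from 3.96 ± 1.29 to 1.71 ± 0.5 and the kinase gene Sgk1 from 21.9 ± 5.42 to 11.5 ± 2.99 (adjusted p = 0.00074, 0.0041 and 0.0067). Hypoxia genes went both ways, 5 higher and 6 lower of 24 (unscaled 3 and 8). Next to Pdk1 above, Kdm3a, P4ha2 and Ndrg1 fell, from 6 ± 0.374 to 3.99 ± 0.171, 1.87 ± 0.295 to 0.859 ± 0.117 and 9.58 ± 1.76 to 4.64 ± 0.789 FPKM (adjusted p = 0.00054, 0.00083 and 0.00094).

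Transcript length moved with diet group across the whole table. The 10598 tested genes that have a length in the GENCODE vM21 annotation were sorted into 5 bins of nearly equal size. The length is that of the transcript tagged as principal, or of the longest where several or none were tagged. The bin of the shortest (up to 1639 bases) had a median log2 fold change of -0.15 and the longest (from 4734 bases) of 0.08. In the shortest bin 8.3% of genes rose and 23.8% fell, and in the longest 22.8% and 8.73%. Across these genes length and log2 fold change had a Spearman rho of 0.212. Among the libraries, short transcripts were highest in Ctrl 4 (median deviation 0.217 from the mean of all 10) and Ctrl 1 (0.152), while Ctrl 3 (-0.108) lay with Alc 1 (-0.137) and Alc 5 (-0.121). The labels give no measure of RNA integrity.

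**Figure D4:**
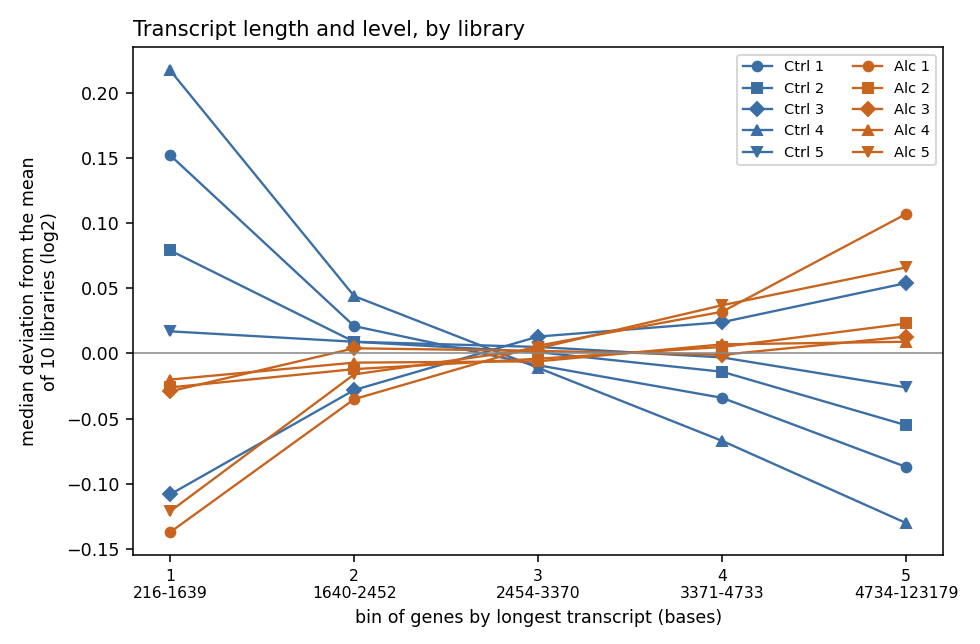
Median deviation of each library from the mean of the 10 libraries (log2), by bin of genes sorted by transcript length (5 bins), for Ctrl (blue) and Alc (orange). The axis label names the longest transcript, but the principal transcript was used where the annotation tags one. Ctrl 4 falls from 0.217 to -0.13 from the shortest to the longest bin, Alc 1 climbs from -0.137 to 0.107, and Ctrl 3 runs with the Alc libraries.

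Gene sets of short transcripts have to be read beside that trend. Cytosolic ribosomal protein genes, 80 tested, had a median of -0.25 and gave 1 higher and 6 lower (unscaled 0 and 25). Without Ctrl 3 26 were lower and without Ctrl 5 16, but 1 to 3 without Alc 1, Alc 5, Ctrl 2 or Ctrl 4, and the median was -0.04 once the length trend of each library was removed. Complex I subunits of the respiratory chain went from a median of -0.20 with 5 higher and 4 lower of 37 (unscaled 2 and 7) to 0.01 with 6 and 1. Without Ctrl 3 18 of them were lower and without Alc 1, 2 or 5 or Ctrl 1, 2 or 4 none, while 1 to 3 were higher without any library but Alc 3 or Ctrl 5. Mitochondrial ribosomal proteins went from 5 higher and 10 lower of 78 to 8 and 7 (unscaled 2 and 21), with 23 lower without Ctrl 3 and 6 without Alc 1, Alc 5 or Ctrl 2, and with 3 higher without Alc 5 or Ctrl 1 and 8 without Ctrl 5. ATP synthase subunits went from 2 and 2 of 17 to 4 and 0 of 15 with a length (unscaled 2 and 4), with 5 lower without Ctrl 3 and 0 or 1 without any other library but Ctrl 5. Proteasome subunits went from 4 and 3 of 46 to 7 and 1 (unscaled 1 and 11), with 7 lower without Ctrl 3 and 0 or 1 higher without Alc 1, 2, 4 or 5 or Ctrl 2, 3 or 4. Ndufs1 and Atp5b kept their calls through all alternatives that tested them. Ndufs1, of the complex I entry arm, rose from 38.5 ± 3.46 to 52.4 ± 5.22 and Atp5b, the catalytic beta subunit, from 379 ± 109 to 626 ± 76 (adjusted p = 0.0058 and 0.012).

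**Figure D5:**
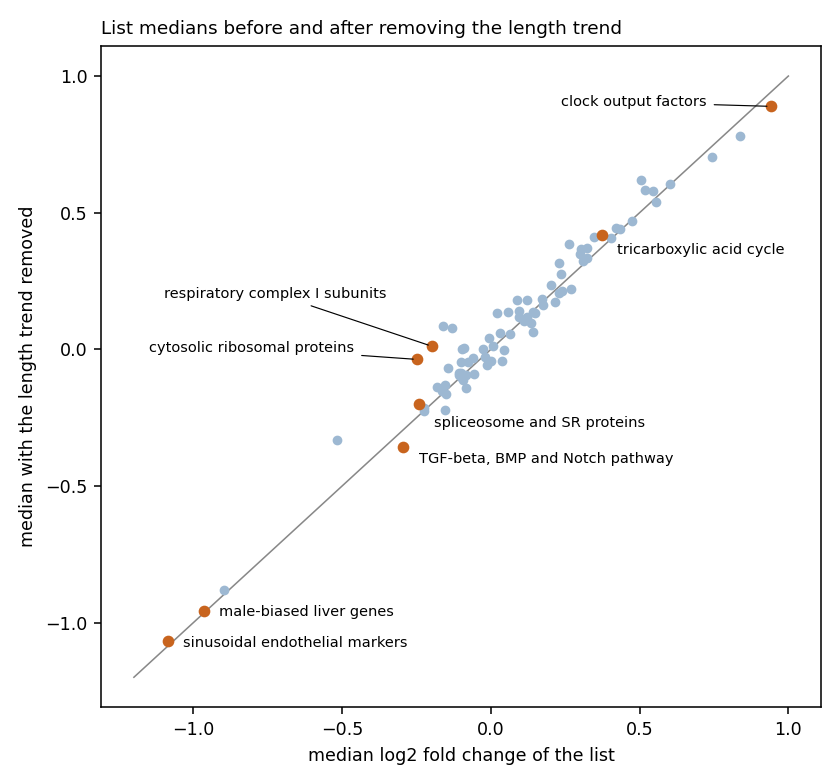
Median log2 fold change of each gene list with 11 or more genes (points) before (x axis) and after (y axis) the trend with transcript length was removed from each library; the line marks equality. Ribosomal proteins (-0.25 to -0.04) and complex I (-0.20 to 0.01) move toward 0, while sinusoidal endothelial markers (-1.09 to -1.07) and the spliceosome (-0.24 to -0.20) stay near the line.

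SR proteins bind exons and recruit the spliceosome, whose core is built from small ribonucleoproteins. Of 57 such genes 22 fell and 5 rose, with a median of -0.24, against 20 and 4 and a median of -0.20 without the trend. With single libraries left out 16 to 27 fell. Srsf6 was at 46, 39.8, 37.6, 35.6 and 38 in Ctrl 1 to 5 and 28.1, 25.4, 24.5, 25.7 and 25.9 in Alc 1 to 5, lower in every Alc library (log2 fold change -0.58 ± 0.08, adjusted p = 0.00083). Srsf9 fell from 18.5 ± 1.31 to 14 ± 0.641 and Hnrnph1 from 67.1 ± 11.6 to 41.9 ± 3.62 (adjusted p = 0.0032 and 0.0034). Prpf8, the large scaffold of the catalytic core, rose instead, at 14.4, 18, 18.3, 15.1 and 18.5 in Ctrl 1 to 5 and 28.7, 24.6, 26.6, 21.5 and 30.1 in Alc 1 to 5 (log2 fold change 0.61 ± 0.11, adjusted p = 0.0023), beside Sf3b2 and Snrnp200 (log2 fold change 0.51 and 0.49).

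Histone genes fell in 8 of 13 tested and rose in 1, H2ac19, which was listed at 0 in 4 Ctrl libraries and lost its call in 9 of 23 alternatives. H2bc4 was at 217, 201, 147, 203 and 182 in Ctrl 1 to 5 and 63.6, 92.4, 91.3, 114 and 98.8 in Alc 1 to 5, 2.06-fold lower without overlap (log2 fold change -1.05 ± 0.16, adjusted p = 0.0011), and H2afx fell from 6.18 ± 1.37 to 3.29 ± 0.43 (adjusted p = 0.0021). With the length trend removed 3 of the 7 histone genes with a length were lower. Ribosome biogenesis factors fell in 11 of 50 and rose in 2 (unscaled 0 and 14), against 11 and 3 with the length trend removed. Nop56, of the box C/D particle that methylates ribosomal RNA, fell from 13.7 ± 3.05 to 7.94 ± 0.525 and Nle1 from 2.91 ± 0.568 to 1.78 ± 0.207 (adjusted p = 0.0032 and 0.0074).

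Of 64 translation factors 17 rose and 5 fell (unscaled 10 and 12, at a median of -0.04), 10 higher without Alc 5 and 11 without Alc 1. Eef2k, the kinase that slows elongation, was at 1.09, 1.2, 1.39, 1.05 and 1.13 in Ctrl 1 to 5 and 2.35, 2.85, 2.79, 2.01 and 2.77 in Alc 1 to 5, a 2.18-fold rise without overlap (log2 fold change 0.71 ± 0.09, adjusted p = 0.00045), and Eif4b, of the cap-binding helicase, rose from 74.6 ± 16.4 to 119 ± 15.9 (adjusted p = 0.0069). Aminoacyl-tRNA synthetases rose in 12 of 38 and fell in 3 (unscaled 7 and 3; 6 rose without Alc 5), with Eprs up from 20 ± 2.65 to 27.9 ± 1.62 and Tars down from 40.7 ± 6.85 to 24.1 ± 2.45 (adjusted p = 0.0041 and 0.0016). The other falls were Farsa (log2 fold change -0.45, adjusted p = 0.012) and Tars2 (log2 fold change -0.29, adjusted p = 0.024), the latter lost in 8 of 23 alternatives.

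In the secretory pathway 15 of 54 rose and 6 fell (unscaled 11 and 10), 3 lower without Alc 5. Sec24a, of the COPII coat that carries cargo from the ER, was at 12.2, 13.1, 11.2, 10.8 and 13.6 in Ctrl 1 to 5 and 24.7, 17.6, 15.5, 18 and 19.2 in Alc 1 to 5, with no overlap (log2 fold change 0.59 ± 0.12, adjusted p = 0.0038). Sec31a rose from 22.9 ± 1.18 to 31.3 ± 2.42, Srp54a, of the signal recognition particle, from 10.5 ± 1.01 to 14.8 ± 1.42, and Spcs3, of the signal peptidase, from 10.1 ± 1.13 to 13.9 ± 1.47 (adjusted p = 0.0023, 0.0039 and 0.0056). Autophagy and lysosome genes rose in 14 of 53 and fell in 2 (unscaled 4 and 3), but only 7 to 9 rose without Alc 1, Alc 2, Alc 5 or Ctrl 4. Pik3c3, the lipid kinase that starts the autophagosome, was at 18.8, 17, 21.7, 20.7 and 15.8 in Ctrl 1 to 5 and 54.6, 28.2, 23.5, 44.4 and 61.3 in Alc 1 to 5, higher in each Alc library with a wide spread (log2 fold change 1.05 ± 0.24, adjusted p = 0.0072), and Atg7 rose from 10.8 ± 1.79 to 16.7 ± 1.52 (adjusted p = 0.0025).

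Of the 202 solute carriers tested 66 rose and 22 fell, and 56 to 74 rose when single libraries were left out. Slc5a6, the uptake carrier for biotin and pantothenate, was at 2.6, 2.17, 2.2, 1.67 and 1.9 in Ctrl 1 to 5 and 6.42, 7.13, 6.77, 6.65 and 6.32 in Alc 1 to 5. The 5 Alc libraries lay within 1 FPKM of each other and all above the controls (log2 fold change 1.31 ± 0.09, adjusted p = 9.5e-06). Slc16a1, the lactate and ketone body carrier MCT1, was at 20, 32, 32.5, 31.7 and 35.5 in Ctrl 1 to 5 and 9.41, 9.61, 7.03, 11.2 and 8.72 in Alc 1 to 5, and its mean was 3.3-fold lower (log2 fold change -1.61 ± 0.15, adjusted p = 0.00013). Slc30a10, a manganese exporter, fell from 8.01 ± 1.05 to 2.35 ± 0.471 (adjusted p = 3.4e-05). Of 5 aquaporins tested, the glycerol channel Aqp9 rose from 166 ± 32.3 to 253 ± 14.9 and the intracellular Aqp11 from 12.4 ± 1.32 to 22.6 ± 2.15 (adjusted p = 0.0043 and 0.00029), while Aqp1, an endothelial marker, fell.

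Of the claudins, which seal tight junctions, 3 of 6 fell. Cldn1 was at 21.7, 27.3, 27.3, 25.5 and 31.3 in Ctrl 1 to 5 and 17.1, 15.7, 14.8, 11.9 and 16.5 in Alc 1 to 5, lower in every Alc library (log2 fold change -0.77 ± 0.12, adjusted p = 0.0011), and Cldn3 fell from 82.6 ± 9.88 to 55.2 ± 7.62 (adjusted p = 0.0043), next to the endothelial Cldn5. Zinc finger genes of the Zfp series gave 14 higher and 34 lower of 243 (unscaled 6 and 40), which is below the background in both directions, and 22 fell without Alc 2 or Ctrl 4 and 7 rose without Alc 5 or Ctrl 4. Zfp692 was lower, from 6.27 ± 0.973 to 3.01 ± 0.611, and Zfp445 higher, from 15.8 ± 1.4 to 26.3 ± 3.97 (adjusted p = 0.00067 and 0.0012).

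Innate immune and antigen presentation genes gave few calls. Of 45 interferon-stimulated genes 3 rose and 4 fell (unscaled 1 and 5), 15.6% called against 33.7% of all genes. Ifit1, a sensitive target of type I interferon, was at 4.96 ± 2.76 to 5.61 ± 2.54 FPKM (adjusted p = 0.75). Stat2, which carries the signal, was at 29.1, 25.6, 25.7, 26 and 22.8 in Ctrl 1 to 5 and 14.6, 14.2, 18.8, 17.4 and 11.9 in Alc 1 to 5, lower in every Alc library (log2 fold change -0.73 ± 0.12, adjusted p = 0.0015), Isg20 fell from 4.6 ± 1.17 to 2.09 ± 0.366, and the RNA sensor gene Ifih1 rose from 4.8 ± 1.11 to 7.59 ± 0.914 (adjusted p = 0.0013 and 0.0062). The remaining calls were Ddx58 and Gbp7, higher (log2 fold change 0.40, adjusted p = 0.0082 and log2 fold change 0.57, adjusted p = 0.019), whose calls were lost in 1 and 2 of 23 alternatives, and Ifi27 and Bst2, lower (log2 fold change -0.62, adjusted p = 0.015 and log2 fold change -0.54, adjusted p = 0.017).

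Of 25 antigen presentation genes 3 rose and 2 fell (unscaled 2 and 3). Tapbp (tapasin) rose from 26.3 ± 2.39 to 38 ± 2.54 and H2-T22, a nonclassical class I gene, from 58.3 ± 9.42 to 90.7 ± 4.57 (adjusted p = 0.0015 and 0.0022). The third was Psmb8 (log2 fold change 0.38, adjusted p = 0.043), and the falls were H2-Q6 (log2 fold change -0.47, adjusted p = 0.026) and H2-M3 (log2 fold change -0.38, adjusted p = 0.027). Their calls were lost in 14, 7 and 8 of 23 alternatives. B2m, the light chain of class I, was at 2457 ± 877 to 1834 ± 247 (adjusted p = 0.2), and class I heavy chain genes are near copies of each other, which makes single values uncertain.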

How the data were processed

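Total RNA of livers, taken up by phenol and chloroform extraction and sequenced on an MGISEQ instrument per the labels' protocols, was deposited by the authors as 1 table of FPKM values for 15 libraries, of which the 5 Ctrl and 5 Alc libraries were used. The submitters' processing notes name HISAT2 2.1.0, Bowtie2 2.2.5, RSEM 1.2.8 and StringTie, without their roles. For the genome build, annotation and strand setting the sources used here give no statement.

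Each library was divided by its median of ratios to the geometric mean of the 10 libraries over 10755 genes above 0 in all of them. Genes with at least 1 FPKM in 5 libraries were kept, a pseudocount of 1 was added, and log2 values were fitted with limma 3.58.1 (R 4.3.3; mean trend in the variance prior, no block), with Benjamini-Hochberg adjustment over 10773 genes and a threshold of 0.05. Fold changes are given ± SE, and ratios are those of group means of scaled FPKM. The fitting script was tested on simulated data. Of the genes kept, 10 passed the filter through Alc alone and 29 through Ctrl alone. In the lists described, Alc alone brought in 1 clock core loop gene and 1 glycogen gene. Ctrl alone brought in 1 gene each of the male-biased, B and plasma cell, stellate and matrix, hypoxia, solute carrier and Zfp lists. Since the values are not counts, no count test was run, and the depth of a library is unknown.

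Gene lists and the genes named were chosen with earlier results of these data known, so neither is independent support. Named was a part of a set made of the largest changes, the most significant genes of each list and a fixed panel; some of the largest changes, such as Cyp2b9 and Elovl3, are not described here; members of counts of 5 or fewer, Coq10b, and other genes outside that rule were chosen after their values were seen. Alternatives covered the scaling, the pseudocount, the filter, the samples in the fit, the variance prior, library weights, a replicate block, leaving out each library and 2 libraries together; removal of the length trend was added after seeing the data. Promoters came from RefSeq (GRCm38.p6) and were matched by symbol, and figures were drawn with matplotlib 3.10.9. Some results are not reported here.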

Additional observations from a re-analysis of the deposited data

Results flagged for a closer look

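In each group of 5 libraries the gap between the highest or lowest library and its nearest neighbour was divided by the range of the group (Dixon's gap ratio, on log2 values), and a ratio above 0.71 was taken as a library standing apart. Of 504 groups examined, over the genes named above, 3 shares and 7 marker sums, 32 did so (6.35%), and chance alone gives about 1 in 20. The cause was not tested for any of them.

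Ctrl 1 held Alas1 at 112 FPKM, below the other 4 libraries of its group (195 to 232, gap ratio 0.76) and Alb at 14183, below the others (26992 to 35010, gap ratio 0.712). It also held E2f8 at 3.04, below the others (5.54 to 6.69, gap ratio 0.747) and Sf3b2 at 24.1, below the others (30.6 to 33.4, gap ratio 0.735). To these came Slc16a1 at 20, below the others (31.7 to 35.5, gap ratio 0.8) and Xbp1 at 28.3, below the others (45.2 to 48.1, gap ratio 0.882). Ctrl 2 held Trib3 at 2.32 FPKM, below the other 4 libraries of its group (3.54 to 3.79, gap ratio 0.855). Ctrl 3 held Eln at 2.53 FPKM, above the other 4 libraries of its group (1.17 to 1.49, gap ratio 0.719) and Fmo2 at 13.4, above the others (4.99 to 5.42, gap ratio 0.92).

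Ctrl 4 held Isg20 at 6.65 FPKM, above the other 4 libraries of its group (3.87 to 4.41, gap ratio 0.767). Ctrl 5 held Aqp9 at 223 FPKM, above the other 4 libraries of its group (148 to 158, gap ratio 0.835) and Cd163 at 0.689, below the others (2.52 to 3.06, gap ratio 0.839). It also held Ces2e at 78.7, above the others (30.5 to 37.4, gap ratio 0.786) and H2ac19 at 1.29, above the others (all listed at 0, gap ratio 1). To these came Jchain at 2.08, below the others (5.43 to 7.55, gap ratio 0.722) and Nr1d2 at 12.2, above the others (6.22 to 7.37, gap ratio 0.757). To these came Smad6 at 2.91, below the others (4.5 to 5.15, gap ratio 0.756). Alc 1 held Abca1 at 17.2 FPKM, above the other 4 libraries of its group (14.4 to 15.1, gap ratio 0.733) and Clock at 4.15, above the others (2.55 to 2.9, gap ratio 0.747). It also held Id3 at 12.4, below the others (25.7 to 30.8, gap ratio 0.799) and Smad7 at 1.01, below the others (2.51 to 3.13, gap ratio 0.773). Alc 2 held C2 at 62.9 FPKM, above the other 4 libraries of its group (50.6 to 52.7, gap ratio 0.82). Alc 3 held Axin2 at 2.21 FPKM, above the other 4 libraries of its group (1.36 to 1.57, gap ratio 0.732) and Ppox at 14.1, above the others (9.72 to 10.8, gap ratio 0.711). It also held Tars at 20, below the others (24.4 to 26.4, gap ratio 0.725). Alc 4 held Ctsc at 7.77 FPKM, below the other 4 libraries of its group (9.69 to 10.3, gap ratio 0.796) and Gnmt at 812, below the others (1291 to 1441, gap ratio 0.809). It also held Hrg at 615, below the others (954 to 1074, gap ratio 0.788) and Pfkp at 1.54, above the others (0.649 to 0.805, gap ratio 0.791). To these came Ttr at 6121, above the others (5347 to 5534, gap ratio 0.746). Alc 5 held Nr1d2 at 22.3 FPKM, below the other 4 libraries of its group (24 to 24.4, gap ratio 0.801) and Srsf9 at 12.9, below the others (13.9 to 14.4, gap ratio 0.714).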

How the results depend on the processing

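The count of genes higher in Alc was 1326 to 2157 and that of genes lower 1247 to 2119 when single libraries were left out, and past a log2 fold change of 1 these were 152 to 228 and 117 to 189. Without scaling the FPKM, 1024 genes were higher, and with libraries scaled to the same sum 1153 were lower. Past a log2 fold change of 1, a pseudocount of 5 gave 90 higher and 57 lower, and a pseudocount of 0.1 gave 287 lower. A threshold on the adjusted p alone gave 1857 and 1772, and one at a log2 fold change of 0.5 gave 890 and 826. With the replicate number as a block, 1518 were higher and 1377 lower. Same-numbered libraries correlated at -0.314 to 0.248 in their deviations from the group means, and differently numbered ones at -0.308 to 0.343. No pairing by number was visible, but so few libraries cannot show that there was none. The cause of these moves was not tested. Of the 227 called genes named, 182 kept their call in each of the 23 alternatives that tested them, and none changed direction. Genes left out of an alternative, by its filter or for want of a length, were not tested in it. Such cases count as kept here and in each count of 23 above. Of 140 list counts, 48 stayed within 1.5 times under every alternative; counts of 5 or fewer, lists of short subunits aside, moved by up to 5 genes when 1 library was left out. Log2 fold changes of genes near 1 FPKM depend on the pseudocount, and without depth no limit of detection can be given.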
